A study of Homo sapiens with 4 samples.

Results

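The 8 genes described here are known from mesoderm or mesenchyme: the forkhead genes FOXC1, FOXC2, FOXF1, FOXF2, FOXD1 and FOXL1, and the odd-skipped-related genes OSR1 and OSR2. They were taken by gene symbol, and each symbol had 1 row, so they make up 8 of the 58365 rows of the expression table. RNA-seq was performed on H1 cells, an established human embryonic stem cell (hESC) line, at day 2 of a hematopoietic differentiation in defined medium. All cells received activin A and BMP4, at 40 and 50 ng/ml with the labels and the methods differing on which agent had which concentration. The DMSO group received the solvent, and the IWP2 group received IWP2, an inhibitor of Porcupine, the enzyme that adds the lipid Wnt proteins need for secretion. Each group had 2 libraries. The labels do not say whether they came from separate cultures, so p-values measure only the spread between these libraries, which may be technical. The comparison asked how the 8 genes were expressed when Wnt secretion was blocked during the passage from pluripotency to mesoderm.

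Values are FPKM, in which fragments are divided by transcript length and by the mapped fragments of the library, so that levels can be set side by side between genes. In each library 15687 to 15855 rows reached 0.5 FPKM. The step between the lowest values of long single-exon genes gave an estimated 18300000 to 22700000 fragments per library. Replicates correlated across genes at 0.975 in the DMSO group and 0.981 in the IWP2 group. Of the 9 pluripotency markers, 5 were called higher with IWP2 and 1 lower, against 5.81% and 7.35% of all rows in the test described below. Their summed FPKM was 1371 and 1192 in the DMSO libraries against 2498 and 2504 in the IWP2 libraries. Most of this rise was that of 1 gene, POU5F1, at 750.7 and 571.4 FPKM with DMSO and 1854 and 1844 FPKM with IWP2. The cells were bulk cultures, in which fewer cells of a type and less RNA per cell cannot be told apart.

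Forkhead proteins bind DNA through a shared winged-helix domain. FOXC1 and FOXC2 act in paraxial mesoderm, somites and forming vessels. FOXF1 acts in lateral plate, splanchnic and extraembryonic mesoderm, including the allantois, while its paralog FOXF2 is known for gut and palate mesenchyme and for brain pericytes. FOXL1 marks mesenchyme beneath the gut epithelium, FOXD1 marks the stromal progenitors of the kidney, OSR1 is among the earliest genes of intermediate mesoderm, and OSR2 acts in the palate, limb and kidney. In human, FOXF1, FOXC2 and FOXL1 lie close together on chromosome 16, with MTHFSD between FOXF1 and FOXC2, and FOXF2 and FOXC1 are neighbours on chromosome 6.

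FOXF1 and FOXC1 fell with IWP2, and the other 6 genes did not pass a test or were too low to be tested. FOXF1 was the most abundant of the 8 genes in the DMSO group and close to undetected with IWP2, whereas FOXF2 had the same mean in both groups. Of the 8 genes, 4 had a mean of at least 0.5 FPKM over the 4 libraries, the minimum for testing. A gene that passes this minimum only through its high group has to differ, so the count among the tested members describes them and supports nothing about the 8 as a set. In limma's moderated test on log2(FPKM + 1), with Benjamini-Hochberg adjustment and a threshold of 0.05, 2 of the 4 were lower with IWP2, against 7.35% of all 15980 rows tested. None of the 4 was higher, against 5.81% of all rows, and none was higher at an unadjusted p under 0.05 either. The median log2 difference over all rows tested was -0.01.

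**Figure D1:**
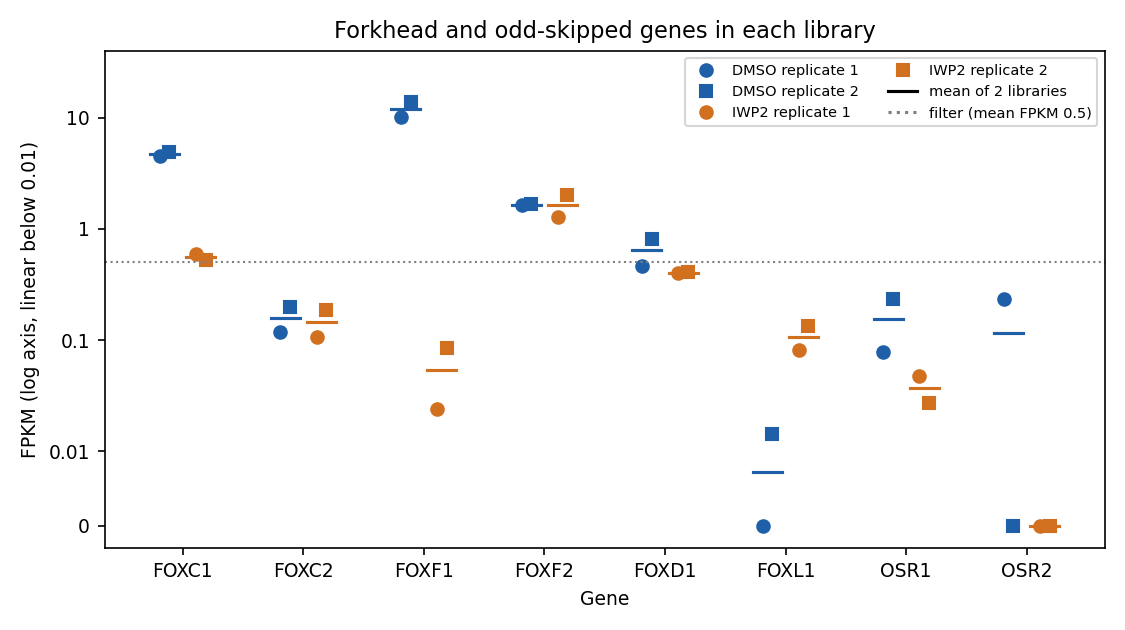
FPKM of the 8 genes in each of the 4 libraries, on an axis that is linear below 0.01 and logarithmic above it; points are libraries, short bars are means of 2 libraries and the dotted line is the 0.5 FPKM minimum for testing. FOXF1 lay at 10.2 and 13.7 FPKM with DMSO and at 0.0243 and 0.0844 with IWP2, and FOXF2 lay between 1.27 and 2.02 in all libraries.

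The promoters of FOXC1, of its chromosome 6 neighbour FOXF2 and of FENDRR, the noncoding gene that starts beside FOXF1, are shown because FOXC1 and FENDRR fell while FOXF2 was not called. Each runs from 250 bases before to 50 after the annotated start, 5′ to 3′ on the gene's strand, from RefSeq on GRCh38.p14. These RefSeq starts differ from the GENCODE gene starts used elsewhere in the text. The windows of FOXC1, FOXF2 and FOXD1 lie wholly before the GENCODE starts of these genes, and motif positions refer to the RefSeq starts. FOXC1, FOXF2 and FOXD1 were the 3 of 8 members that matched the promoter table. Capitals mark matches, on either strand, to the core letters of 6 factor families, with positions counted from 0 at the start. The letters searched for TCF/LEF, the nuclear factors of Wnt signalling, were CTTTGA. For forkhead factors they were TGTTTAC, for GATA factors AGATAA, for SMAD factors of activin and BMP signalling CAGACA, for Snail factors the E-box CAGGTG, and for T-box factors GGTGTG, which can overlap the E-box letters.
FOXC1 promoter (chr6:1609665-1609964, forward): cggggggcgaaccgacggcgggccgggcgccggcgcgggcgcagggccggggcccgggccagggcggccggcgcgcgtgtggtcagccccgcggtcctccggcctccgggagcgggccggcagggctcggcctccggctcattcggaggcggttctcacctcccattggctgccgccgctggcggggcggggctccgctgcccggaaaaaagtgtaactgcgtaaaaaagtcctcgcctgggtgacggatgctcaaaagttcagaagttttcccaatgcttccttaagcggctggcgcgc
FOXF2 promoter (chr6:1389326-1389625, forward): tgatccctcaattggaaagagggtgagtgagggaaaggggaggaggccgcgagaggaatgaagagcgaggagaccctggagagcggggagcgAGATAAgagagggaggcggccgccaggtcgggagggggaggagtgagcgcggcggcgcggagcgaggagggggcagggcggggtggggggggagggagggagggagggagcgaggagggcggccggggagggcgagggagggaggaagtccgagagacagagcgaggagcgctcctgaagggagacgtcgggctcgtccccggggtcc
FENDRR promoter (chr16:86508811-86509110, reverse): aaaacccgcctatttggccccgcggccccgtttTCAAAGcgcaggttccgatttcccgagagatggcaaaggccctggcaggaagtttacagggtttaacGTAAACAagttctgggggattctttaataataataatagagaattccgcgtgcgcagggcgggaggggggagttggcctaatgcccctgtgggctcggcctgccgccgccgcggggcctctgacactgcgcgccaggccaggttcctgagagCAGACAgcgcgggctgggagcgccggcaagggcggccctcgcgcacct

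The FOXC1 promoter held none of the 6 motifs and was 72.7% G and C, against a median of 58.7% over all 35116 promoters of the table. The FOXF2 promoter was 71.0% G and C and held AGATAA at position -158 from the start. The FENDRR promoter, at 62.3% G and C, held TCAAAG, the reverse of the TCF/LEF letters, at -217, GTAAACA, the reverse of the forkhead letters, at -150, and CAGACA at 2. The FOXD1 promoter held CAGACA at -224 and CACACC, the reverse of the T-box letters, at -56. Of all promoters of this length, 12.9% held the TCF/LEF letters, 3.4% the forkhead letters, 10.3% the GATA letters, 16.9% the SMAD letters, 20.6% the E-box letters and 16.8% the T-box letters. Such matches describe the sequence and are not measured binding sites.

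FOXF1 (ENSG00000103241.6) is a protein-coding gene at chr16:86510527-86515418 on the forward strand of GRCh38. It was measured at 10.2 and 13.7 FPKM in the DMSO libraries, and at 0.0243 and 0.0844 FPKM in the IWP2 libraries. The groups did not overlap, and every IWP2 value was under 0.1 FPKM. The means were 11.97 ± 2.49 FPKM with DMSO and 0.0543 ± 0.0425 FPKM with IWP2 (SD, n = 2 each), a ratio of 220.3. In approximate fragments, recovered from the size of 1 fragment in each library, this was 740 and 886 against 1.94 and 5.85. The ratio of depth-scaled fragments was 222 with an exact 95% interval of 112 to 514, which covers counting error only. The log2 difference was -3.61 (SE 0.19, 95% interval -4.09 to -3.13, limma adjusted p = 0.00106), on a scale that understates the change of a gene near 0. It was the 50th lowest of the 15980 differences. FOXF1 stood at the 87.9 and 89.8 percentiles of all rows in the DMSO libraries, and at the 60.5 and 64.2 percentiles in the IWP2 libraries. With 1 IWP2 library left out, the limma adjusted p was 0.0532 without replicate 1 and 0.0543 without replicate 2, above the threshold, while the log2 difference stayed between -3.81 and -3.41 whichever library was left out. Over the other settings tried the adjusted p ran up to 0.0419.

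FOXC1 (ENSG00000054598.6, chr6:1609972-1613897, forward strand) was lower with IWP2 and still measurable there. Its level was 4.49 and 4.96 FPKM with DMSO, and 0.593 and 0.524 FPKM with IWP2. The groups did not overlap, and the values within each group lay close together. The means were 4.72 ± 0.330 and 0.559 ± 0.0490 FPKM (SD, n = 2 each), a ratio of 8.45. Approximate fragments were 363 and 357 with DMSO, against 53.0 and 40.6 with IWP2, and their depth-scaled ratio was 8.35 (exact 95% counting interval 6.73 to 10.5). The log2 difference was -1.88 (SE 0.15, 95% interval -2.27 to -1.49, limma adjusted p = 0.00359), the 228th lowest of all rows tested. The limma adjusted p was above the threshold without IWP2 replicate 1, at 0.0757, and without IWP2 replicate 2, at 0.0828, and the log2 difference stayed between -1.93 and -1.82. Over the other settings tried the adjusted p ran up to 0.0496.

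FOXF2 (ENSG00000137273.3, chr6:1389834-1395597, forward strand) showed no detected difference. It was measured at 1.63 and 1.68 FPKM with DMSO, and at 1.27 and 2.02 FPKM with IWP2. The IWP2 values lay on either side of both DMSO values. The means were 1.65 ± 0.0360 and 1.65 ± 0.532 FPKM (SD, n = 2 each). The log2 difference was -0.02 with a 95% interval of -0.53 to 0.49 (limma adjusted p = 0.968). A change of either sign within these bounds would not have been detected in these libraries. The bounds are not a limit of detection, and a somewhat larger change could also have been missed.

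FOXD1 (ENSG00000251493.4, chr5:73444827-73448527, reverse strand) was lower in both IWP2 libraries than in either DMSO library without passing the test. Its level was 0.465 and 0.820 FPKM with DMSO, and 0.400 and 0.410 FPKM with IWP2. The higher DMSO library stood apart from the other 3 values, which lay close together. The ratio of means was 1.59, and the log2 difference was -0.22 (SE 0.20, 95% interval -0.74 to 0.30, limma adjusted p = 0.542). Approximate fragments summed to 64 with DMSO and 45 with IWP2, a depth-scaled ratio of 1.55 (exact 95% counting interval 1.04 to 2.32). FOXD1-AS1, which lies within the FOXD1 span on the opposite strand, was at 0.393 and 0.389 FPKM in replicate 1 of the DMSO and IWP2 groups and at 0 in replicate 2 of both. The kit does not mark strand, so reads of FOXD1 and FOXD1-AS1 cannot be told apart where they overlap.

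The other 4 genes were under the testing minimum and are given as levels, so that changes at this depth would be detectable only where they were large. FOXC2 (ENSG00000176692.5, chr16:86567251-86569728, forward strand) was at 0.118 and 0.198 FPKM with DMSO, and at 0.107 and 0.186 FPKM with IWP2. The groups overlapped, and 15 approximate fragments were summed in each, a depth-scaled ratio of 1.09 (exact 95% counting interval 0.497 to 2.39). OSR1 (ENSG00000143867.6, chr2:19351485-19358653, reverse strand) was at 0.0779 and 0.234 FPKM with DMSO, and at 0.0472 and 0.0274 FPKM with IWP2. Both IWP2 values lay below both DMSO values. The DMSO values differed from each other by more than the lower of them differed from either IWP2 value. Scaled by all 5309 exon bases of its 3 annotated transcripts, the fragments came to 8.53 and 22.8 against 5.69 and 2.87. These lie near multiples of the lowest of them, so the true counts may be smaller, and no counting interval is given.

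FOXL1 (ENSG00000176678.5, chr16:86576368-86582160, forward strand) was the one member with both IWP2 values above both DMSO values. It was listed at 0 and at 0.0144 FPKM with DMSO, and at 0.0816 and 0.133 FPKM with IWP2. These levels rest on 1 fragment against 17, an IWP2 to DMSO ratio of 15.6 with an exact 95% counting interval of 2.44 to 652. OSR2 (ENSG00000164920.9, chromosome 8) was detected in 1 library of 4, DMSO replicate 1, at 0.234 FPKM and about 14.1 fragments. It was listed at 0 in the other 3 libraries, where 3 fragments, the limit that a count of 0 allows, would be 0.0450 to 0.0558 FPKM. A fit over the 28917 rows above 0 in any library, added after the data were seen, gave limma adjusted p of 0.936 for FOXC2, 0.444 for OSR1, 0.191 for FOXL1 and 0.570 for OSR2. The same rows with a pseudocount of 0.1 gave log2 differences of -0.83 for OSR1 (adjusted p = 0.405) and 0.94 for FOXL1 (adjusted p = 0.145). Before adjustment, the limma p of FOXL1 was 0.0278 in the former fit and 0.0170 in the latter.

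Over the 8 genes, the groups did not overlap for 5. FOXF1, FOXC1, FOXD1 and OSR1 were lower in both IWP2 libraries, against 24.0% of the rows above 0 in any library, and FOXL1 was higher in both, against 21.9% of these rows. The order of levels in the DMSO group was FOXF1, FOXC1, FOXF2, FOXD1, FOXC2, OSR1, OSR2 and FOXL1. From FOXC2 downwards neighbours in this order overlapped between libraries, and above FOXC2 they did not. In the IWP2 group the order was FOXF2, FOXC1, FOXD1, FOXC2, FOXL1, FOXF1, OSR1 and OSR2. There FOXF2, FOXC1 and FOXD1 were separate from their neighbours, while FOXL1 overlapped with FOXC2 and with FOXF1, and FOXF1 overlapped with OSR1.

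**Figure D2:**
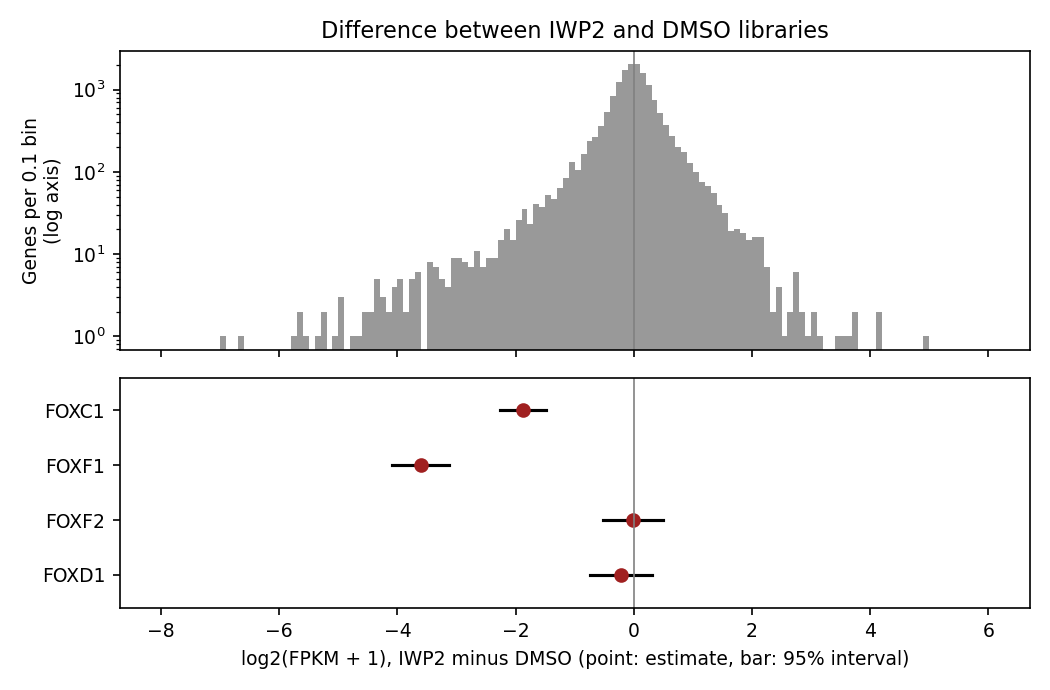
Log2 difference, IWP2 minus DMSO, of log2(FPKM + 1) for the 4 tested genes with their 95% intervals, over the distribution of all 15980 rows tested. FOXF1 at -3.61 and FOXC1 at -1.88 lie in the lower tail, and the intervals of FOXF2 and FOXD1 include 0.

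FOXF1 lay above FOXF2 in both DMSO libraries and below it in both IWP2 libraries. The FPKM ratios of FOXF1 to FOXF2 and of FOXC1 to FOXC2 were lower in both IWP2 libraries than in both DMSO libraries. FOXF1 FPKM exceeded FOXF2 FPKM 6.27 and 8.19 times in the DMSO libraries. In the IWP2 libraries FOXF2 exceeded FOXF1 52.4 and 24.0 times. There FOXF1 rested on about 1.94 and 5.85 fragments, so the size of these ratios is imprecise. On the log2(FPKM + 1) scale the difference between FOXF1 and FOXF2 was 2.28 ± 0.26 with DMSO and -1.32 ± 0.23 with IWP2 (SD, n = 2 each), so that it changed by -3.59. FOXC1 exceeded FOXC2 38.1 and 25.0 times with DMSO, and 5.55 and 2.82 times with IWP2. These ratios are imprecise too, since FOXC2 rested on about 6.02 to 9.09 fragments in each library. On the log2(FPKM + 1) scale the difference between FOXC1 and FOXC2 was 2.31 ± 0.01 with DMSO and 0.44 ± 0.12 with IWP2 (SD, n = 2 each), a change of -1.86. The exact two-sided permutation test gave p = 0.333 for both pairs, the smallest that 2 against 2 libraries allow, so this test cannot reach 0.05 with these libraries whatever the size of the change.

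The values of genes around FOXF1 and FOXC1 were read for comparison with the members. FENDRR, a long noncoding RNA of lateral mesoderm, starts at -1428 bases from the FOXF1 start, on the opposite strand, and its promoter is among those printed above. It was at 1.47 and 2.18 FPKM in the DMSO libraries and was listed at 0 in both IWP2 libraries (limma adjusted p = 0.0138). FOXF1 and FENDRR therefore had their detected expression in the same 2 libraries, with FOXF1 at a few fragments in the IWP2 libraries. FENDRR reached the testing minimum only through the DMSO libraries, so its call restates these levels. Its mean was below the alternative minimum of 1 FPKM, and it was not called in the fits over rows above 0 in any library. With 1 library left out, FENDRR stayed called only without DMSO replicate 1.

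MTHFSD, whose start lies 44.7 kb beyond that of FOXF1, was at 6.06 and 5.20 FPKM with DMSO and at 5.19 and 6.56 FPKM with IWP2 (limma adjusted p = 0.881). FOXC2 and FOXL1 follow at 56.7 and 65.8 kb, with the low levels given above. FLJ30679 was at 0.0253, 0.0855, 0.115 and 0.107 FPKM in DMSO replicates 1 and 2 and IWP2 replicates 1 and 2. FOXC2-AS1, LINC01081 and LINC01082 were listed at 0 in all 4 libraries. The called differences on this stretch of chromosome 16 were those of FOXF1 and FENDRR, which both reached the testing minimum only through the DMSO libraries.

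On chromosome 6, FOXF2 starts at -220 kb and FOXQ1, another forkhead gene, at -298 kb from the FOXC1 start. FOXQ1 was below the testing minimum at 0.191 and 0.311 FPKM with DMSO and 0.174 and 0.425 FPKM with IWP2, and FOXCUT was listed at 0 in all libraries. GMDS, an enzyme of GDP-fucose synthesis whose span begins 13.8 kb beyond the FOXC1 start, rose from 11.7 and 14.2 FPKM to 20.3 and 27.9 FPKM (log2 difference 0.84, limma adjusted p = 0.0463), a call that was lost without the intensity trend (adjusted p = 0.0722) and with any 1 library left out. GMDS-AS1 was at 0.345 and 0.496 FPKM with DMSO and at 1.45 and 0.177 FPKM with IWP2 (adjusted p = 0.706). Of the genes read around FOXD1, OSR2 and FOXF1, the adjusted p was 0.283 for BTF3, 0.910 for ANKRA2, 0.482 for UTP15, 0.412 for VPS13B and 0.574 for STK3, and IRF8 was below the testing minimum.

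**Figure D3:**
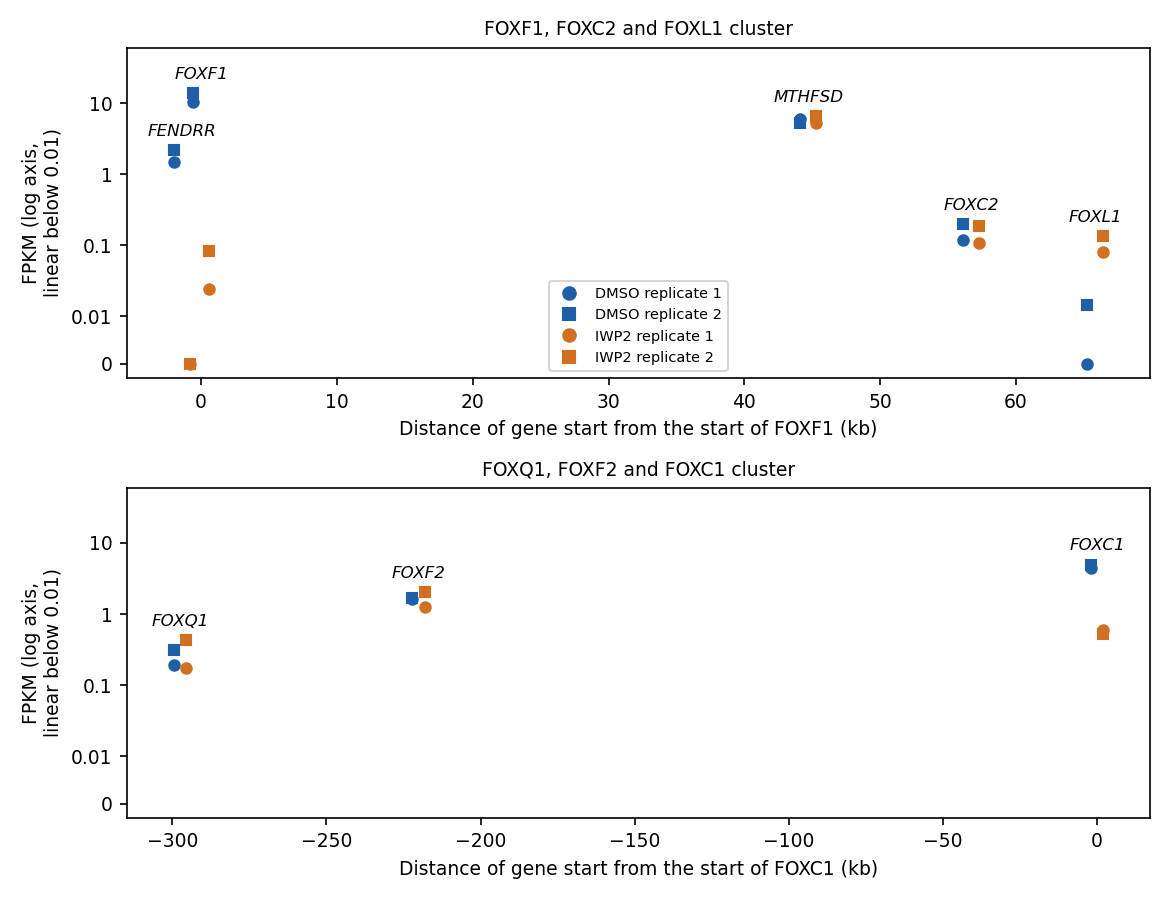
FPKM of the genes at the FOXF1 locus (upper panel) and the FOXC1 locus (lower panel) against the distance of each gene start from that of FOXF1 or FOXC1 in kb, with the 2 groups drawn slightly to the left and right of each start; points are libraries. FOXF1 and FENDRR are near or at 0 with IWP2 and MTHFSD is between 5.19 and 6.56 FPKM in all libraries, while at the other locus FOXC1 is lower with IWP2 and FOXF2 and FOXQ1 overlap.

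Lists of other genes known for each kind of mesoderm were read next, and the 8 genes are not in them. From here on, each count of called list genes stands beside 7.35% lower and 5.81% higher over all 15980 rows tested. In these and later lists some genes, such as MESP1, DLL3, LHX1 and SP5, reached the testing minimum only through the DMSO libraries. FOXD3 reached it only through the IWP2 libraries. Such genes have to differ, so the counts and medians describe the lists and support nothing about them as sets. In lateral plate and extraembryonic mesoderm, where FOXF1 acts, 12 of the 14 tested of 16 genes fell and none rose, with a median log2 difference of -2.08 against -0.01 over all rows. GATA6, a zinc finger factor of early mesoderm and endoderm, changed by -4.90, BMP2, a bone morphogenetic protein, by -4.34, MSX1, a homeobox factor, by -3.99, and GATA4, a factor of heart mesoderm, by -3.97. GATA4 was at 62.6 and 76.2 FPKM with DMSO and at 3.41 and 3.54 FPKM with IWP2. ISL1 and MSX2, also homeobox factors, did not pass the test, at log2 differences of -0.09 and -0.12. With 1 library left out, 9 or 10 genes were called lower without a DMSO library, and 5 without either IWP2 library.

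In paraxial mesoderm, where FOXC1 and FOXC2 act, 3 of the 7 tested of 15 genes fell and none rose, with a median log2 difference of 0.06. DLL3, a Notch ligand of the presomitic mesoderm, went from 44.9 and 81.6 FPKM to 0.254 and 0.292 FPKM (log2 difference -5.60). MESP2, which sets segment borders, changed by -3.96, and TBX6, a T-box factor of presomitic mesoderm, by -1.85. MSGN1, a master factor of presomitic mesoderm, was below the testing minimum, at 1.00 and 0.447 FPKM with DMSO and listed at 0 with IWP2. The count was 1 without IWP2 replicate 1 and 0 without IWP2 replicate 2.

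Intermediate mesoderm, where OSR1 acts, had 4 of 11 genes above the minimum, of which LHX1 and SALL1 fell. LHX1, a LIM-homeobox factor also known in the anterior streak, went from 31.2 and 47.3 FPKM to 0.09998 and 0.452 FPKM (log2 difference -4.96). SALL1, a zinc finger factor of the kidney, changed by -1.11 and stayed at 24.9 FPKM or more. GATA3 and SIX2 did not pass the test, at log2 differences of -0.20 and 0.36. PAX2, a defining gene of this mesoderm, was at 0.823 and 0.804 FPKM with DMSO and listed at 0 with IWP2, below the testing minimum, and PAX8 and WT1 were under 0.5 FPKM in every library. The median log2 difference of the 4 was -0.66, and 1 of the calls was left without either IWP2 library.

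Genes that come before these in the sequence of mesoderm formation also fell. Of 16 primitive streak and nascent mesoderm genes tested, 14 fell and none rose, with a median of -2.94. Some of the 14, among them MESP1 and GSC, reached the testing minimum only through the DMSO libraries. APLNR, the receptor used to sort day 2 mesoderm, went from 379.7 and 512 FPKM to 2.97 and 2.39 FPKM, a log2 difference of -6.91. MESP1, a bHLH factor of nascent mesoderm, changed by -5.70, EVX1, a homeobox factor of the posterior streak, by -4.51, and GSC, a homeobox factor of the anterior streak, by -4.36. The count was 12 without either DMSO library and 6 without either IWP2 library.

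Of 11 Wnt target genes, 8 fell and none rose, with a median of -1.16. SP5, a direct target in the streak, went from 53.2 and 47.1 FPKM to 0.379 and 0.363 FPKM (log2 difference -5.22), LGR5, an R-spondin receptor, changed by -4.54, DKK1, a secreted inhibitor, by -4.24, and NKD1, an intracellular inhibitor, by -4.12. NKD2, RNF43 and ZNRF3 did not pass the test, at log2 differences of 0.28, -0.17 and 0.19. The count was 5 with any 1 library left out.

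Hedgehog signals act upstream of FOXF1, FOXL1 and OSR1 in several tissues, so this pathway was read as well. The ligands SHH, IHH and DHH were below 0.2 FPKM in every library. Of 10 genes, 5 were tested, of which 2 were called higher and 1 lower, against 5.81% and 7.35% of all rows tested. GLI1, a transcription factor and target of the pathway, rose from 1.18 and 1.80 FPKM to 4.52 and 4.18 FPKM (log2 difference 1.11, limma adjusted p = 0.0211), and PTCH1, the receptor and also a target, rose by 0.79 (limma adjusted p = 0.0327, and 0.0512 without the intensity trend). GLI2, the main activator, changed by -0.66. The calls of all 3 were lost with any 1 library left out.

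BMP4 was given to both groups. Of 7 BMP response genes, 4 rose and 1 fell, with a median of 0.46, against 5.81% and 7.35% of all rows tested. ID1 changed by 1.45, ID4 by 1.24, ID3 by 1.01 and BAMBI, a decoy receptor, by 0.46, while SMAD6, an intracellular inhibitor, changed by -0.81. Without either DMSO library 1 gene was called higher, and without either IWP2 library none was.

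The other forkhead genes were divided. Of 38, 21 were tested, 4 fell and 6 rose, against 7.35% and 5.81% of all rows tested. The median log2 difference of the 21 was -0.06, and 3 of the 38 were listed at 0 in all libraries. FOXD3, a factor of pluripotent cells and neural crest, had the opposite pattern to FOXF1, at 0.0238 and 0.0805 FPKM with DMSO and 3.66 and 3.87 FPKM with IWP2 (log2 difference 2.18, limma adjusted p = 0.00287). FOXA2, a factor of endoderm and the anterior streak, went from 6.28 and 3.49 FPKM to 0.222 and 0.297 FPKM (log2 difference -2.18). FOXI3, a factor of ectoderm, rose by 1.70, and FOXP1 rose by 1.58, a call lost without the intensity trend (limma adjusted p = 0.0583). FOXO4, FOXN3 and FOXO1 rose by 1.33, 0.85 and 0.83. FOXP4 changed by -0.80, FOXJ2 by -0.69, and FOXH1, the partner of SMAD2 in activin and Nodal signalling, changed by -0.63. Without a DMSO library 2 or 3 forkhead genes other than the members were called higher and 1 lower, and without either IWP2 library none was called. FOXD1 and FOXD3, of the same subfamily, were thus at 0.400 and 0.410 against 3.66 and 3.87 FPKM in the IWP2 libraries.

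**Figure D4:**
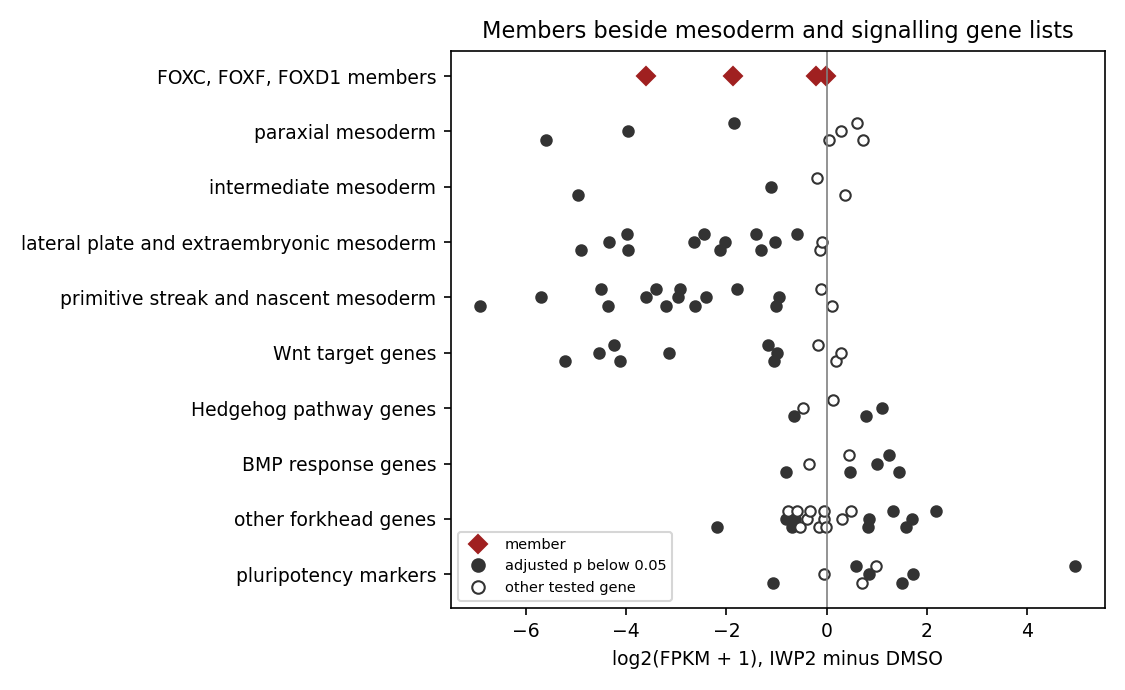
Log2 difference, IWP2 minus DMSO, of the tested genes of each list; points are genes, filled where the limma adjusted p was below 0.05, and diamonds are the tested members. The primitive streak and lateral plate lists lie mostly below 0, and FOXF1 and FOXC1 lie below 0 with them.

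Markers of other cells moved with the groups as well, and their part in the levels of FOXF1 and FOXC1 was not tested. Of the 9 pluripotency markers, SOX2 rose from 0.193 and 0.174 FPKM to 35.6 and 36.1 FPKM (log2 difference 4.96), PRDM14 rose by 1.72, POU5F1 by 1.496, DPPA4 by 0.85 and ZFP42 by 0.59, and TDGF1 changed by -1.06. NANOG did not pass the test, at 23.0 and 9.54 FPKM with DMSO and 33.6 and 27.5 FPKM with IWP2. Of 6 tested definitive endoderm markers 5 fell, among them CER1 with a log2 difference of -5.60, FOXA2 with -2.18, CXCR4 with -1.94 and HHEX with -1.27. The summed FPKM of the 7 listed was 1803 and 2174 with DMSO against 122.8 and 134.4 with IWP2. Most of the DMSO sum was CER1, at 1612 and 2048 FPKM, against 38.62 and 34.24 FPKM with IWP2. SOX17, a defining endoderm gene, was at 154.7 and 104.2 FPKM with DMSO and at 79.7 and 94.9 FPKM with IWP2 and did not pass the test.

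Of 8 tested neural and surface ectoderm markers 4 rose, KRT7 by 2.10, TFAP2A by 1.22, GABRP by 1.16 and NES by 0.49 on the log2 scale, and none passed the test as lower. PAX6, a defining neural gene, was at 1.33 and 0.646 FPKM with DMSO and at 0.0838 and 0.0278 FPKM with IWP2, groups that did not overlap, without passing the test (log2 difference -0.89, limma adjusted p = 0.0780). DLX5, a homeobox factor of surface ectoderm, was at 2.51 and 1.86 FPKM against 1.25 and 1.10 FPKM and did not pass the test either (log2 difference -0.55, limma adjusted p = 0.124). The summed FPKM of the 9 ectoderm markers was 577.4 and 464.5 with DMSO against 676.8 and 705.3 with IWP2, with SOX1 at 0.0355 FPKM or less in every library. Most of each sum was KRT18, which did not pass the test, at 423.2 and 344.9 FPKM with DMSO and 443.9 and 480.1 FPKM with IWP2. Endothelial and blood markers summed to 16.0 and 11.6 FPKM against 5.29 and 6.83 FPKM. RUNX1 changed by -1.43 and TEK by -0.72 among the 6 tested, PECAM1 and CDH5 were below 0.5 FPKM in every library, and GATA1 was listed at 0 in all. Stromal fibroblast markers summed to 183.9 and 197.7 FPKM against 188.6 and 193.5 FPKM. In these sums COL1A2 was at 55.86 and 67.52 against 45.25 and 43.81 FPKM, and THY1 at 89.11 and 83.05 against 114 and 118.5 FPKM. Of the 7 tested LUM changed by -1.79 and THY1 by 0.43, and DCN was at or near 0 in every library. Without either IWP2 library, 1 pluripotency marker stayed called higher and 1 endoderm marker lower, and no ectoderm, endothelial or stromal marker stayed called. The endothelial calls were also lost without either DMSO library.

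The genes whose levels over the 4 libraries were closest to each tested member were found by the Euclidean distance of log2(FPKM + 1), over all rows tested. Closest to FOXF1 were AL513329.1, at a distance of 0.32, and AC008753.2, at 0.42, and 3 rows lay within 0.5 of it. Closest to FOXC1 were ANKRD19P at 0.21 and ANKS1B at 0.21, with 17 rows within 0.5. FOXF2 had LEAP2 at 0.11 and AC007406.5 at 0.15, and 385 rows within 0.5. FOXD1 had C11orf70 at 0.04 and AC011005.1 at 0.07, and 453 rows within 0.5. Few rows therefore shared the levels of FOXF1 in all 4 libraries, while the levels of FOXF2 and FOXD1 were common ones.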

How the data were processed

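RNA of H1-derived cells was sequenced from TruSeq libraries, 2 per group. The table deposited by the authors holds FPKM per gene for 58365 GENCODE rows. The submitters' processing notes name BWA, Bowtie, RSEM and hg19, without roles or versions, while 99.76% of the 55723 identifiers shared with GENCODE 29 have its GRCh38 position, so GRCh38 coordinates are given. FPKM hide the depth, which was estimated from the step of 1 fragment in single-exon genes of at least 2000 bases. Intervals on these fragments cover counting error only. Fragments were scaled by all annotated exon bases of a gene, so they are too many where a shorter transcript was expressed. The DMSO columns carry replicate numbers and no sample title, and were taken as the DMSO group.

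Log2(FPKM + 1) of rows with a mean of at least 0.5 FPKM was tested with limma 3.58.1 in R 4.3.3 (moderated test with an intensity trend, Benjamini-Hochberg adjustment over 15980 rows, threshold 0.05). On simulated data, 49 of 50 genes at log2 differences of -2 or 2 were recovered, 27 of 50 at -1 and 37 of 50 at 1, with 1 false call. The changed genes were drawn from rows with a mean of at least 2 FPKM, with noise set by the variance trend alone. Recovery at the lower levels of FOXF2, FOXD1 and FENDRR was not simulated. Ratios were tested with an exact permutation test. The 8 genes and the lists were chosen with earlier results of these data known. Named genes are the members, their neighbours, up to 4 called genes per list with the largest differences, and the 2 genes nearest to each tested member. BAMBI, DPPA4, ZFP42, HHEX, FOXO4, FOXN3, FOXO1, FOXP4, FOXJ2, FOXH1, SOX17, NANOG, MSGN1, PAX2, PAX6, DLX5 and the other list genes given as levels or as not passing were named after their values were seen. Alternatives were the pseudocount, the filter, the scaling, the trend, a replicate block and leaving out each library.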

Additional observations from a re-analysis of the deposited data

How the results depend on the processing

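Over the 4 libraries, 1175 rows were lower and 929 higher with IWP2. Without a filter the counts were 2847 and 2600, in a fit in which over 50% of rows are 0 in every library and the variance estimate is unreliable. Among rows above 0 in any library, added after the data were seen, they were 263 and 118, and with a pseudocount of 0.1 on those rows 200 and 89. With 1 library left out the counts ran from 76 to 410 lower (410 without DMSO replicate 1, 307 without DMSO replicate 2, 93 without IWP2 replicate 1, 76 without IWP2 replicate 2) and from 18 to 286 higher (286, 125, 26 and 18 in the same order). In these fits the lone library of a group is assumed to vary like the others. The number of members lower ran from 0 to 2, at 0 without either IWP2 library, and the number higher was 0 throughout. The other planned settings gave 1035 to 1212 lower and 814 to 1066 higher, with FOXF1 and FOXC1 lower in each.

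The log2 difference with 1 library left out ran from -3.81 to -3.41 for FOXF1, from -1.93 to -1.82 for FOXC1, from -0.22 to 0.19 for FOXF2 (0.19 without IWP2 replicate 1) and from -0.37 to -0.06 for FOXD1. Neighbours of the members that were not called changed sign with 1 library left out. MTHFSD reached -0.05 and -0.10, GMDS-AS1 ran from -0.27 to 0.79, ANKRA2 reached -0.06 and -0.0705, and STK3 ran from -0.34 to 0.0064. The cause was not tested.

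Replicate numbers are shared between the groups, but nothing says that they mark a shared day or culture, and deviations of same-numbered libraries correlated at 0.14 with only 2 pairs. A replicate block gave 1059 rows lower and 842 higher, and both members stayed lower. Among the planned settings with all 4 libraries, TEK lost its call under the block (limma adjusted p = 0.0763) and under median-of-ratios scaling (0.0506). PTCH1, FOXP1, GMDS, NES and THY1 lost theirs without the intensity trend. In the added fit over rows above 0 in any library, most lists held fewer calls. Lower were 12 primitive streak, 7 lateral plate, 6 Wnt target, 1 endoderm and 0 other forkhead genes. Higher were 3 pluripotency, 1 BMP response, 1 other forkhead, 0 Hedgehog and 0 ectoderm genes. At these few fragments, changes in FOXC2, FOXL1, OSR1 and OSR2 are limited by depth.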
